A study of Mus musculus with 22 samples.

Results

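The 8 genes described here, Ms4a1, Bank1, Cd22, Cd72, Fcer2a, Cr2, Cd83 and Cd55, were taken by symbol from 3 tables of gene expression in mouse B cell precursors, and all 8 were found in each table, among 41814 gene symbols in all. They were grouped as immature and mature B surface genes. By what is known of the proteins, 7 of them are surface molecules, whereas Bank1 encodes an adaptor in the cytosol. The stage part of the name fits Cd72 and Cd22 less well. Cd72 is present from the Pro-B cell onward, and the level of Cd22 was highest in large Pre-B cells. Poly-A RNA had been sequenced from bone marrow cells of adult tet-LIN28B mice and littermate controls, and levels were compared between genotypes within each of 3 sorted stages.

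The tet-LIN28B mice carried a doxycycline-inducible cDNA of human LIN28B with a Flag tag at the Col1a locus (Col1a tetO-LIN28B), expressed from a single allele, together with the tetracycline transactivator rtTA*m2 at Rosa26. Control mice were heterozygous for Rosa26 rtTA*m2 and lacked the LIN28B cDNA. Mice of both genotypes were fed doxycycline chow at 200 mg/kg over 10 days, so transactivator and drug were shared by all libraries. Nothing in this design restricts the transgene to B cells. Cells that carried CD3, TER119 or GR1 had been depleted before the sort, and CD93+ IgM- B lineage cells were divided by cKIT into Pro-B (positive) and Pre-B (negative) cells, and each of these by size on forward scatter. There were 5 tet-LIN28B and 4 control libraries of large Pro-B cells, 4 tet-LIN28B and 3 control libraries of large Pre-B cells, and 3 libraries of each genotype of small Pre-B cells. These 22 libraries came from 15 mice, of which 7 were the source of libraries of both large stages, and small Pre-B cells were taken from separate mice.

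B cell precursors in the bone marrow first rearrange the heavy chain locus as Pro-B cells, divide as large Pre-B cells under the pre-B cell receptor, and then leave the cycle and rearrange the light chain locus as small Pre-B cells. Molecules that set the strength of the antigen receptor signal, take up antigen and present it, or handle IgE and complement are for the most part switched on late in this path, and their levels are used to tell immature from mature B cells. CD20, the product of Ms4a1, CD23, the product of Fcer2a, and CD21, a product of Cr2, are commonly used in this way, whereas CD72 is present from the Pro-B cell onward.

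The depth was 13.9 to 23.3 M reads a library for large Pro-B cells, 19.9 to 30.4 M for large Pre-B cells and 32.0 to 51.0 M for small Pre-B cells. Mouse Lin28b, which counts those transgene reads that align to it, did not overlap between genotypes in any stage, at 57.0 to 232 normalized counts in tet-LIN28B against 4.63 to 10.2 in control large Pro-B cells, 41.9 to 175 in tet-LIN28B against 9.92 to 28.8 in control large Pre-B cells, and 81.9 to 230 in tet-LIN28B against 0 in all control small Pre-B cells. A normalized count is a read count divided by the size factor of its library, set within 1 stage. Genes detected ranged from 17931 to 31881 in large Pro-B libraries, where tet-LIN28B replicate 3 was highest, followed by control replicate 4 (26954) and tet-LIN28B replicate 5 (26233). They ranged from 20936 to 28434 in large Pre-B libraries, where control replicate 3 was highest, and from 19237 to 19815 in small Pre-B libraries.

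**Figure D1:**
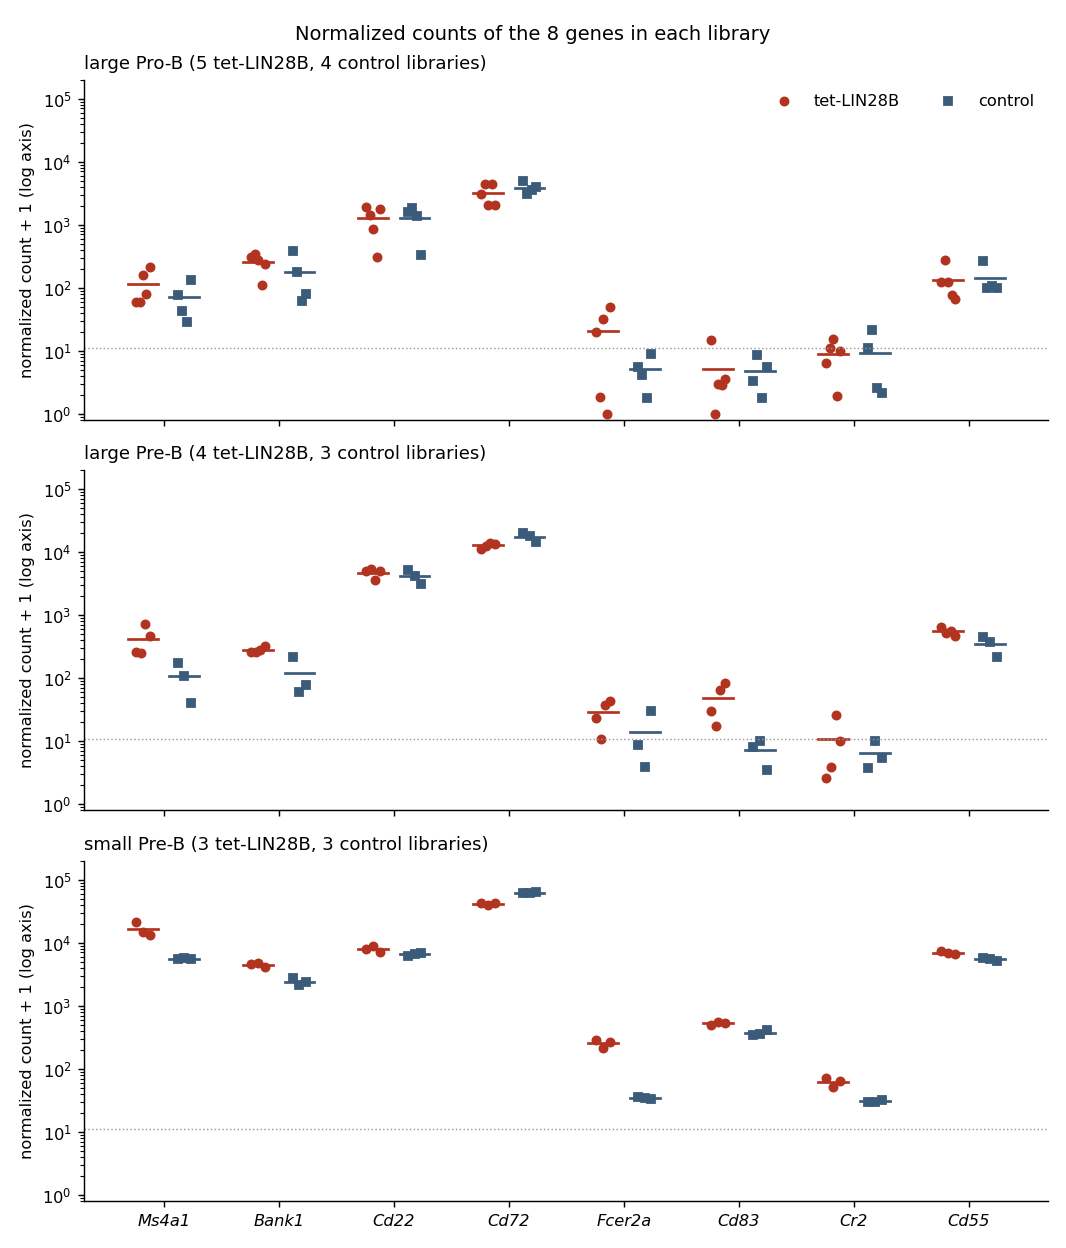
Normalized count plus 1 (log axis) of the 8 genes in each library, with tet-LIN28B libraries as circles, control libraries as squares, a bar at each group mean, and a dotted line at the filter minimum of 10. In small Pre-B cells the genotypes did not overlap for any of the 8 genes, and only Cd72 was lower in tet-LIN28B, whereas in large Pro-B cells they overlapped for all 8.

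In small Pre-B cells the 8 genes all passed the test for a difference between genotypes. The test was a limma fit on log2(normalized count + 1) with p-values adjusted over all 14664 genes tested, and a gene was said to rise or fall at an adjusted p under 0.05. Ms4a1, Bank1, Cd22, Fcer2a, Cr2, Cd83 and Cd55 rose and Cd72 fell. Of all genes tested, 14.4% passed (7.34% rose and 7.03% fell, 1076 against 1031 genes). After libraries were set to a common total, 829 genes rose and 1227 fell, and 6 of the 8 members passed, Cd22 and Cr2 being lost. The genotypes did not overlap for any of the 8, against 33.9% of all genes tested. The median log2 fold change of the 8 genes was 0.70, and that of all genes tested was -0.00. Each p-value measures the spread between mice.

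Ms4a1, which encodes the membrane protein CD20, the target of B cell depleting antibodies in human medicine, lies on the minus strand of chromosome 19 at 11249675 to 11266241 (GRCm38). It had 21179.9, 14916 and 13288 normalized counts in tet-LIN28B and 5421, 5688 and 5601 in control small Pre-B cells. The lowest tet-LIN28B library stood well above the highest control library, and the spread lay almost wholly among tet-LIN28B mice. The means were 16461 ± 4167 in tet-LIN28B and 5570.1 ± 136 in control (SD, n = 3 each), a log2 fold change of 1.53 ± 0.14 (SE, limma adjusted p = 0.000167). The MS4A family holds many relatives of CD20 in other blood cells. Of 7 other family members tested in this stage, 0 rose and 0 fell, where 14.4% of all genes tested passed. So small a list says little about the family.

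Bank1 (chromosome 3, 136053363 to 136326066, minus strand) encodes an adaptor with ankyrin repeats that joins the antigen receptor to the kinase LYN and to calcium release. It had 4641, 4777 and 4052 normalized counts in tet-LIN28B and 2775, 2118 and 2377 in control small Pre-B cells. All tet-LIN28B libraries lay above all control libraries. The means were 4489.9 ± 385 in tet-LIN28B and 2424 ± 331 in control (SD, n = 3 each), a log2 fold change of 0.89 ± 0.10 (SE, limma adjusted p = 0.000661).

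Among 18 signalling partners of BANK1 and the antigen receptor that were tested, 2 rose, 1 fell and 15 did not pass, with a median log2 fold change of 0.11. This is near the share of all genes tested that passed (14.4%). Blk, a kinase of the LYN family, rose by 0.47 ± 0.07 on the log2 scale (SE, limma adjusted p = 0.00174), and Cd79b, a signalling chain of the receptor, rose by 0.43 ± 0.06 (SE, limma adjusted p = 0.00186). Fyn, another kinase of that family, fell by 0.33 on the log2 scale (limma adjusted p = 0.0450). Lyn itself had a log2 fold change of 0.08 (limma adjusted p = 0.512).

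Cd22 and Cd72 encode receptors that dampen antigen receptor signals through the phosphatase encoded by Ptpn6. Cd22 (chromosome 7, 30865402 to 30880342, minus strand), a lectin for sialic acid, had 8039.7, 8835 and 7149.6 normalized counts in tet-LIN28B and 6099, 6653 and 6821 in control small Pre-B cells. The lowest tet-LIN28B library was just above the highest control library. The means were 8008 ± 843 in tet-LIN28B and 6524 ± 378 in control (SD, n = 3 each), a log2 fold change of 0.29 ± 0.08 (SE, limma adjusted p = 0.0444). This call was lost under 10 of 14 other settings, with limma, edgeR or DESeq2 adjusted p from 0.0110 to 0.158. The antisense gene Gm29439 overlaps Cd22, and the library kit does not mark strand. Gm29439 stood at 4.39% of the Cd22 level in tet-LIN28B and 4.43% in control (log2 fold change 0.28, limma adjusted p = 0.217).

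Cd72 (chromosome 4, 43446462 to 43454628, minus strand), a lectin that binds the semaphorin CD100, was the single member that fell. It had 42871, 39574 and 42516 normalized counts in tet-LIN28B and 60785, 61040.1 and 62969.6 in control small Pre-B cells. The groups were far apart relative to their spread. The means were 41654 ± 1809 in tet-LIN28B and 61598 ± 1195 in control (SD, n = 3 each), a log2 fold change of -0.57 ± 0.06 (SE, limma adjusted p = 0.000315). Tesk1, a kinase gene on the opposite strand, overlaps Cd72 in the annotation, and the library kit does not mark strand. Tesk1 had 5075 to 5930.4 normalized counts in tet-LIN28B and 7969 to 9105 in control small Pre-B cells, a log2 fold change of -0.65 ± 0.08 (SE, limma adjusted p = 0.000791). It stood at 13.0% of the Cd72 level in tet-LIN28B and 13.8% in control. Without strand, reads of the pair in their shared stretch cannot be told apart.

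A list of coreceptors and inhibitory receptors of the antigen receptor, with phosphatases such as that of Ptpn6, held 14 other genes that were tested. Of these, 4 rose, 0 fell and 10 did not pass (14.4% of all genes tested passed). Their median log2 fold change was 0.02. The inhibitory receptor genes Pirb and Btla rose by 0.87 ± 0.11 and 0.56 ± 0.09 on the log2 scale (SE, limma adjusted p = 0.000885 and 0.00245). Ptpn6 rose by 0.55 ± 0.08 (SE, limma adjusted p = 0.00247), and Cd81, a tetraspanin of the complex that holds CD21, rose by 0.27 ± 0.07 (SE, limma adjusted p = 0.0332).

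A further 7 genes were followed as ligands of these molecules, makers or other receptors of the ligands, and shedding enzymes. Of these, 2 rose and 3 fell (14.4% of all genes tested passed), with a median log2 fold change of -0.06. Sema4d, which encodes CD100, the ligand of CD72, rose to 2601 ± 82.4 normalized counts in tet-LIN28B, against 1379 ± 127 in control (SD, n = 3 each, log2 fold change 0.92 ± 0.09 SE, limma adjusted p = 0.000215). Plxnb2, another receptor for CD100, rose by 0.47 ± 0.13 (SE, limma adjusted p = 0.0383). Cmah, which makes the sialic acid form preferred by mouse CD22, fell by 0.63 on the log2 scale (limma adjusted p = 0.0125). Adam10, the protease that sheds CD23, fell by 0.45 on the log2 scale (limma adjusted p = 0.0128). The third, Cd47, a membrane protein that restrains phagocytosis, fell by 0.21 on the log2 scale (limma adjusted p = 0.0489).

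Fcer2a (chromosome 8, 3681737 to 3694175, minus strand) encodes CD23, the low-affinity IgE receptor of follicular B cells. It had 280.2, 215 and 266 normalized counts in tet-LIN28B and 34.4, 33.5 and 31.9 in control small Pre-B cells. Every tet-LIN28B library was far above every control library. The means were 254 ± 34.5 in tet-LIN28B and 33.3 ± 1.26 in control (SD, n = 3 each), a log2 fold change of 2.88 ± 0.22 (SE, limma adjusted p = 7.72e-05). The control value rests on 31 to 37 reads a library.

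Cr2 (chromosome 1, 195136811 to 195176716, minus strand) encodes the complement receptors CD21 and CD35 in mouse. It had 71.1, 50.8 and 62.5 normalized counts in tet-LIN28B and 28.8, 29.2 and 31.0 in control small Pre-B cells. The groups did not overlap, at the lowest level of the 8 genes in this stage. The means were 61.5 ± 10.2 in tet-LIN28B and 29.7 ± 1.15 in control (SD, n = 3 each), a log2 fold change of 1.01 ± 0.30 (SE, limma adjusted p = 0.0466). This call was lost under 10 of 14 other settings, among them each of the 6 that left out a library, with adjusted p from limma, edgeR or DESeq2 of 0.0371 to 0.155.

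Cd55 (chromosome 1, 130439027 to 130462744, minus strand) encodes decay-accelerating factor, which protects cells from complement. It had 7407, 6951 and 6578 normalized counts in tet-LIN28B and 5681, 5616 and 5163 in control small Pre-B cells. All tet-LIN28B libraries lay above all control libraries. The means were 6979 ± 415 in tet-LIN28B and 5487 ± 282 in control (SD, n = 3 each), a log2 fold change of 0.35 ± 0.07 (SE, limma adjusted p = 0.0101). Its near-identical neighbour Cd55b could share reads, and had at most 7.24 normalized counts in any small Pre-B library. Of 5 other complement regulators and receptors tested, among them Cr1l and the integrin chain Itgam, 0 rose and 0 fell (14.4% of all genes tested passed).

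Cd83 (chromosome 13, 43784775 to 43803132, plus strand) encodes a surface protein of activated B cells and dendritic cells that keeps MHC class II on the membrane. It had 488, 557 and 537 normalized counts in tet-LIN28B and 342, 356 and 415 in control small Pre-B cells. The groups did not overlap. The means were 527 ± 35.5 in tet-LIN28B and 371 ± 38.7 in control (SD, n = 3 each), a log2 fold change of 0.51 ± 0.13 (SE, limma adjusted p = 0.0269). The call was lost when tet-LIN28B replicate 2 or 3 or control replicate 1 or 2 was left out, with limma adjusted p of 0.0532 to 0.0999.

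**Figure D2:**
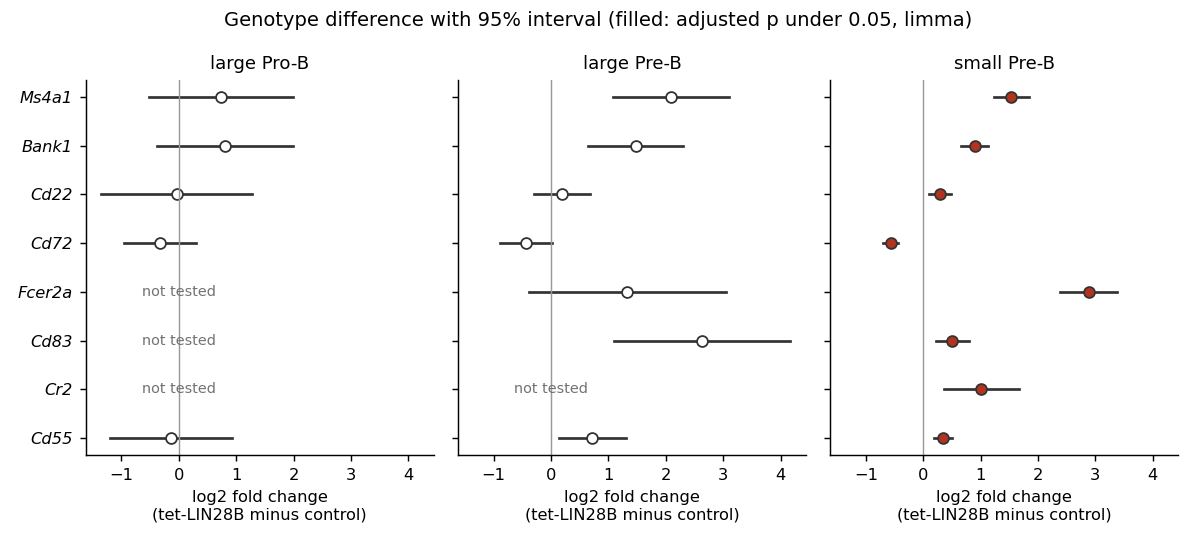
Log2 fold change (tet-LIN28B minus control, horizontal axis) of each gene with its 95% interval in the 3 stages, filled where the limma adjusted p was under 0.05. All 8 genes are filled in small Pre-B cells, where only Cd72 lies left of 0, and none is filled in the large stages.

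The calls of Ms4a1, Fcer2a, Cd72, Cd55 and Bank1 held under each of the 14 other settings, which were other pseudocounts, filters, scalings and tools, a replicate block, and leaving out each library in turn. Those of Cd22, Cr2 and Cd83 did not. Without tet-LIN28B replicate 2, control replicate 1 or control replicate 2, 5 of the 8 genes passed, and 1965 of 15048, 1016 of 15028 and 1304 of 15025 genes in all.

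**Figure D3:**
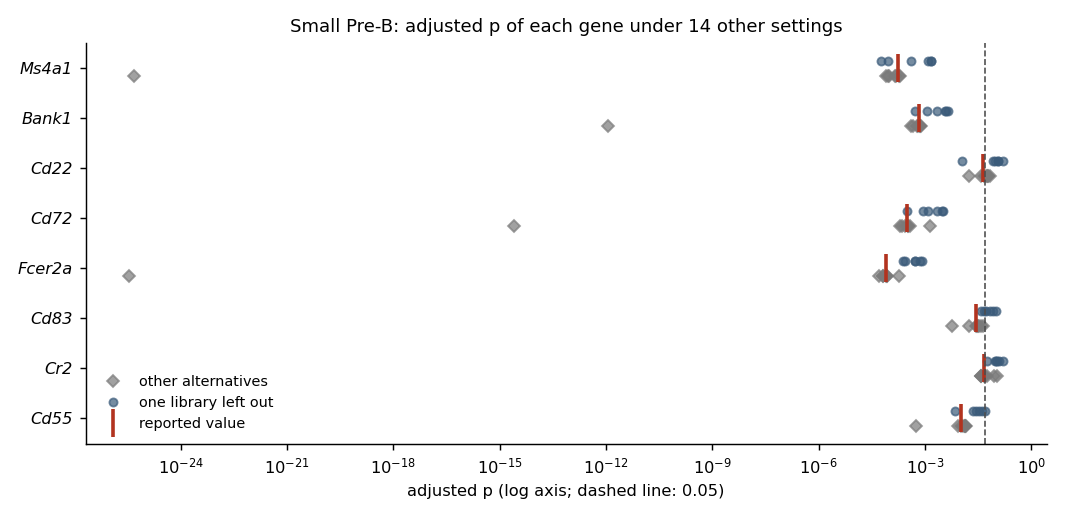
Adjusted p (log axis) of each gene in small Pre-B cells as reported (vertical bar), with 1 library left out (circles) and under the other alternatives (diamonds), with a dashed line at 0.05. Points of Cd22, Cr2 and Cd83 cross the line, and those of the other 5 genes stay left of it, with Cd55 closest.

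RefSeq promoters (GRCm38.p6) were found for 6 of the 8 genes, in 8 windows of 250 bases before an annotated start, 3 of them before starts of Fcer2a. Their bases are shown for Cd72, which fell, and for Fcer2a, Cd55 and Bank1, which rose, since among these 6 genes their calls held under each of the 14 other settings. The searched letters were GAGGAA (PU box), CCCNNGGG (paired half-sites of early B cell factor), CAGGTG (an E box), ATTTGCAT (octamer) and TTCNNNNGAA (paired half-sites of STAT proteins), on both strands. No match overlapped another. Capitals mark the matched letters, each line reads 5′ to 3′ on the strand of the gene, and the last base is the base before the start.
Cd72, chr4:43454627-43454876, minus strand: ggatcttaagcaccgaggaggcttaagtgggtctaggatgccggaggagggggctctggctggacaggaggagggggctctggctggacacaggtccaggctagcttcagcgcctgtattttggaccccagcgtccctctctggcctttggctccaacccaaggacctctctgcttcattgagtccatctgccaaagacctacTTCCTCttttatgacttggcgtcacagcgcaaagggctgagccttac
Fcer2a, start farthest upstream, chr8:3694175-3694424, minus strand: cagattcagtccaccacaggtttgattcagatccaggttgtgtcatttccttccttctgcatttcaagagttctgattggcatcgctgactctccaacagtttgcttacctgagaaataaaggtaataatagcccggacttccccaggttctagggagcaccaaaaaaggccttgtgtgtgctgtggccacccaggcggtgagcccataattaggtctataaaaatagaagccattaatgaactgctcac
Fcer2a, the next start, chr8:3690862-3691111, minus strand: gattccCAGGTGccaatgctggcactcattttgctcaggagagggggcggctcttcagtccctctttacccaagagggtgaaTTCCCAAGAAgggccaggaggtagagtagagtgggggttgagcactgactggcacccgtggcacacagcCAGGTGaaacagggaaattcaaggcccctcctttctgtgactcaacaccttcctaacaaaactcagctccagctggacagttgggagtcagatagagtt
Fcer2a, start farthest downstream, chr8:3690391-3690640, minus strand: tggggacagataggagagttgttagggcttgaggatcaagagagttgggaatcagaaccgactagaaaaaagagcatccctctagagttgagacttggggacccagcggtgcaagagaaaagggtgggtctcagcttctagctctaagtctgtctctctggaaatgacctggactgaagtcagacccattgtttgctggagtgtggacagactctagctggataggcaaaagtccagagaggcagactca
Cd55, chr1:130462745-130462994, minus strand: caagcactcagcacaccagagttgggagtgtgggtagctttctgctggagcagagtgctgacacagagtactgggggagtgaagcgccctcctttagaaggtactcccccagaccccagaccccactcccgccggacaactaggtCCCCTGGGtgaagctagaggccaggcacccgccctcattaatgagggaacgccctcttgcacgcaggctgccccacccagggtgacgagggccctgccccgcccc
Bank1, chr3:136326067-136326316, minus strand: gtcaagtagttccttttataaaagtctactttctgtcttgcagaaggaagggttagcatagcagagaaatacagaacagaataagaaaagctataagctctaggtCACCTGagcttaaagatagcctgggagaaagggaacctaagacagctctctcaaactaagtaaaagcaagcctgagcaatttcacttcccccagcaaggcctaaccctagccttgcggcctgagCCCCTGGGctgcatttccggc
The Cd72 window held the only PU box of the 8 windows, on the opposite strand, at 47 to 42 bases before the start. A PU box occurred in 23.3% of all 32851 windows of the same length. The E box was in windows of Bank1, Cd22, Cr2 and Fcer2a (17.2% of all windows), the early B cell factor pair in those of Bank1, Cd22 and Cd55 (11.8%), the STAT pair in the second window of Fcer2a (5.85%), and the octamer in 0 of the 8 (1.6%). These are matches of letters only, and gene-level values do not show which Fcer2a start was used.

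In large Pre-B cells 7 of the 8 genes were tested, and 0 rose or fell at an adjusted p under 0.05, as for nearly all genes (0.0565% of 14155 genes passed by limma). At an unadjusted p under 0.05 there were 4 of the 7, Ms4a1, Cd83, Bank1 and Cd55, and 930 of all genes. The genotypes did not overlap for 5 of the 7 (4 higher and 1 lower in tet-LIN28B), against 6.46% of all genes tested. The median log2 fold change was 1.33 for the 7 genes and -0.02 for all genes tested. Cd83 passed the filter only through its tet-LIN28B libraries and so had to differ. Without it, 3 of 6 genes had an unadjusted p under 0.05, 4 of 6 did not overlap (3 higher and 1 lower in tet-LIN28B), and the median was 1.03. Fcer2a stays among these 6, although of its controls only replicate 3 (28.8 normalized counts) reached the filter minimum. DESeq2 passed 2 members, Ms4a1 and Cd83, and 0.558% of all genes (79), and edgeR passed 0 members and 0% of all genes.

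Ms4a1 had 260.0, 249.9, 721 and 467 normalized counts in tet-LIN28B and 174, 107 and 39.1 in control large Pre-B cells. The groups did not overlap, and tet-LIN28B replicates 3 and 4 were highest. The means were 424 ± 222 (SD, n = 4) in tet-LIN28B and 106 ± 67.2 (SD, n = 3) in control, a log2 fold change of 2.08 ± 0.47 (SE, limma adjusted p = 0.235). This value passed without control replicate 1, at a limma adjusted p of 0.0435, as did 0.149% of all genes tested then.

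Cd83 had 29.2, 16.7, 63.9 and 83.2 normalized counts in tet-LIN28B and 7.08, 9.21 and 2.56 in control large Pre-B cells. All control libraries were under the filter minimum of 10, and the control values rest on 4 to 16 reads a library. The means were 48.2 ± 30.7 (SD, n = 4) in tet-LIN28B and 6.29 ± 3.40 (SD, n = 3) in control, a log2 fold change of 2.64 ± 0.72 (SE, limma adjusted p = 0.452).

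Bank1 had 257, 263, 279.7 and 328 normalized counts in tet-LIN28B and 218, 59.9 and 76.2 in control large Pre-B cells. The tet-LIN28B libraries were close together, whereas control replicate 1 was far above the other 2. The log2 fold change was 1.48 ± 0.39 (SE, limma adjusted p = 0.386), and it passed without control replicate 1 (limma adjusted p = 0.0209).

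Cd55 had 660.0, 519, 557 and 475 normalized counts in tet-LIN28B and 449.8, 378 and 215 in control large Pre-B cells. Its groups did not overlap, by a narrow margin (log2 fold change 0.72 ± 0.28 SE, limma adjusted p = 0.747). Cd72 had 11320.5, 12475, 13821 and 13648 normalized counts in tet-LIN28B and 19937, 17927 and 14551 in control large Pre-B cells. It was the member below control here too, without overlap (log2 fold change -0.44 ± 0.21 SE, limma adjusted p = 0.747).

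Fcer2a and Cd22 overlapped between the genotypes in large Pre-B cells. Fcer2a had 9.79 to 42.6 normalized counts in tet-LIN28B and 2.88 to 28.8 in control, with a log2 fold change of 1.33 ± 0.80 (SE, limma adjusted p = 0.756). Cd22 had 3628 to 5367 in tet-LIN28B and 3138 to 5234 in control, with a log2 fold change of 0.19 ± 0.23 (SE, limma adjusted p = 0.869). Cr2 was under the filter, at 1.58 to 25.0 normalized counts in tet-LIN28B and 2.83 to 9.21 in control.

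In large Pro-B cells 5 of the 8 genes were tested and 0 passed, as did 0% of all 13776 genes by limma (394 genes and 0 members had an unadjusted p under 0.05, and edgeR and DESeq2 also passed 0 members, and 0% and 0.029% of all genes). The genotypes did not overlap for 0 of the 5 members and 1.3% of all genes. Ms4a1 had 58.5, 57.6, 161, 78.7 and 209 normalized counts in tet-LIN28B and 75.7, 41.7, 27.7 and 132 in control. The highest tet-LIN28B libraries, replicates 3 and 5, had the most genes detected among tet-LIN28B libraries, and the highest control library, replicate 4, had the most among controls. The log2 fold change was 0.73 (95% interval -0.52 to 1.99, limma adjusted p = 0.999).

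Bank1 ranged from 109 to 339 in tet-LIN28B and from 61.5 to 384 in control large Pro-B cells (log2 fold change 0.80, 95% interval -0.38 to 1.98). Cd22 ranged from 311 to 1896 in tet-LIN28B and from 325 to 1875 in control, with 1 low library in each genotype and a wide error (log2 fold change -0.03 ± 0.60 SE). Cd72 ranged from 2036 to 4497 in tet-LIN28B and from 3110.1 to 4903 in control (log2 fold change -0.33, 95% interval -0.95 to 0.29). Differences as large as those in small Pre-B cells lie inside the intervals given for Ms4a1, Bank1 and Cd72.

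Cd55 ranged from 66.5 to 276 in tet-LIN28B and from 96.6 to 264 in control large Pro-B cells, and its log2 fold change of -0.14 (95% interval -1.21 to 0.92) changed sign when single libraries were left out. Fcer2a, Cr2 and Cd83 were under the filter. Fcer2a had 18.7, 0.823, 30.7, 0 and 47.7 normalized counts in tet-LIN28B and 4.52, 3.09, 0.769 and 8.05 in control. It was above every control library in 3 of the 5 tet-LIN28B libraries and at most 0.823 in the other two.

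Whether the difference between genotypes itself differed between stages was tested for 5 genes with enough reads in all stages, in a limma model with the mouse as a block. For none of the 5 did it pass in any of the 3 stage pairs, where 0.0169% (small Pre-B minus large Pre-B), 0.0338% (small Pre-B minus large Pro-B) and 0% (large Pre-B minus large Pro-B) of 11830 genes passed. The smallest unadjusted p was that of Ms4a1 for large Pre-B minus large Pro-B, a difference of 1.32 on the log2 scale (95% interval 0.09 to 2.55, limma unadjusted p = 0.0370 and adjusted p = 1.00). For Cd72 the difference between small Pre-B and large Pre-B cells was -0.08 (95% interval -0.83 to 0.66), and for Bank1 it was -0.66 (95% interval -2.14 to 0.82). A call in small Pre-B cells and none in the large stages is therefore not shown to be a stage difference for these genes.

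Levels across the stages were set side by side as RPM, the reads of a gene per M reads on all genes of a library, and are given as a description. Small Pre-B cells came from other mice than the large stages. Cd72 averaged 178, 765 and 1172 RPM in tet-LIN28B and 216, 1112 and 1777 in control at the Pro-B, large and small Pre-B stages. It was the most abundant of the 8 genes in every group, also per length (343 RPKM in tet-LIN28B and 519 RPKM in control small Pre-B cells, which is RPM per kilobase of annotated exon).

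Cd22 was the one gene with a peak in large Pre-B cells, at 70.9, 282 and 225 RPM in tet-LIN28B and 72.1, 266 and 188 in control over these stages. Ms4a1 averaged 6.44, 25.4 and 462 RPM in tet-LIN28B and 3.85, 6.52 and 161 in control across the same stages. Its level in tet-LIN28B large Pre-B cells lay between those of control large and small Pre-B cells, without overlap with either. Per length, Ms4a1 followed Cd72 in tet-LIN28B small Pre-B cells (74.7 RPKM), whereas in control it was at 26.0 RPKM, below Cd22 (37.3 RPKM) and Cd55 (32.6 RPKM).

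Fcer2a averaged 1.14, 1.67 and 7.14 RPM in tet-LIN28B and 0.228, 0.915 and 0.961 in control over the 3 stages. The control means of the Pre-B stages were close, but that of large Pre-B cells was set by replicate 3. Control replicates 1, 2 and 3 had 0.453, 0.178 and 2.11 RPM there. Neighbours in the order of Fcer2a levels overlapped in range up to the tet-LIN28B large Pre-B libraries, and the tet-LIN28B small Pre-B libraries stood above all others.

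Cd83 averaged 0.225, 2.92 and 14.8 RPM in tet-LIN28B and 0.214, 0.390 and 10.7 in control across the 3 stages. Cd55 averaged 7.42, 32.9 and 196 in tet-LIN28B and 7.86, 21.8 and 158 in control. In control cells the mean of small over that of large Pre-B cells was 27.5 for Cd83 and 7.27 for Cd55. Bank1 averaged 14.3, 16.9 and 126 in tet-LIN28B and 9.78, 7.33 and 69.9 in control, and Cr2 stayed under 2 RPM in every group.

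**Figure D4:**
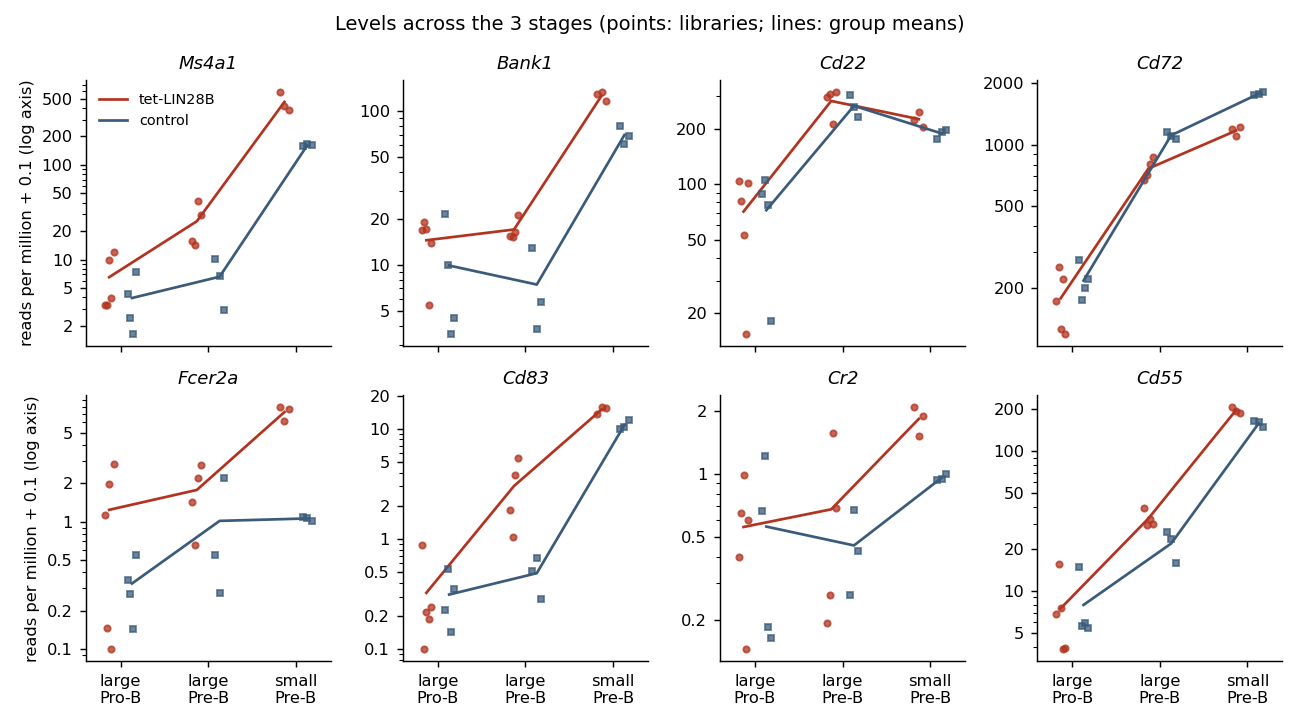
RPM plus 0.1 (log axis, a different range in each panel) of the 8 genes in the 3 stages in order of development, with a point for each library and a line through the group means, tet-LIN28B drawn left of control. Cd72 is the single panel where the control line ends above the tet-LIN28B line, and Cd22 the single panel where both lines turn down at the small Pre-B stage.

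In the 7 mice with libraries of both large stages, Ms4a1, Fcer2a, Cd22, Cd72, Cd83 and Cd55 were each higher in large Pre-B than in large Pro-B cells in 7 of 7 mice. The median ratio ranged from 1.80 for Fcer2a to 4.37 for Cd83. Both of these genes rest on few reads here. Each was at 0 in large Pro-B cells of 1 mouse, and the lowest ratio was 1.03 for Fcer2a and 1.32 for Cd83. The share of all genes higher in 7 of 7 mice was not computed. Bank1 was higher in 2 of 7 mice and Cr2 in 3 of 7. In control cells the means of all 8 genes were higher in small Pre-B than in large Pro-B cells. The genotype difference in small Pre-B cells had the same direction for 7 of the 8. As all 8 means were higher, this only restates that 7 rose, and the share of all genes with the same direction was not computed. For Cr2 the control libraries of the 2 stages overlapped (0.832 to 0.893 RPM against 0.0634 to 1.12). Against large Pre-B cells the direction was the same for 6 of the 8, since Cd22 was 0.708-fold as high in small as in large Pre-B control cells. The 6 include Fcer2a, at only 1.05-fold in control cells, where libraries overlapped (0.920 to 0.993 RPM in small and 0.178 to 2.11 in large Pre-B cells). Cd72 had the opposite direction in both comparisons, and it increased 8.21-fold between large Pro-B and small Pre-B cells in control mice and was lower in tet-LIN28B.

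Other genes that are typical of immature and mature B cells were followed in a list of 42, of which 40 were tested in small Pre-B cells. Of these, 21 rose, 6 fell and 13 did not pass (14.4% of all genes tested passed), with a median log2 fold change of 0.39. Ltb, a cytokine gene of the lymphotoxin family, rose to 14179 ± 757 normalized counts in tet-LIN28B, against 3859 ± 156 in control (SD, n = 3 each, limma adjusted p = 6.57e-07). Genes of antigen presentation by MHC class II were among those that rose, with log2 fold changes of 1.30 for Cd74 and 1.40 for H2-DMb2 (limma adjusted p = 0.000128 and 0.000135).

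Cd38, an ectoenzyme of the B cell surface, fell to 15957 ± 860 normalized counts in tet-LIN28B, against 27673 ± 785 in control (SD, n = 3 each, limma adjusted p = 7.72e-05). Ighd, which encodes the IgD heavy chain of mature B cells, had 5043 in tet-LIN28B and 5067 in control on average (log2 fold change -0.01, limma adjusted p = 0.969). In large Pre-B cells 0 of 39 and in large Pro-B cells 0 of 38 tested genes of this list passed. This list was chosen with results of these data known and is no independent evidence of a direction.

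Markers of other cell types were read beside these results. Their counts in small Pre-B cells stand beside the 14.4% of all genes tested that passed. In small Pre-B cells the summed level of 10 T cell markers was 307 to 327 RPM in tet-LIN28B and 268 to 279.6 in control, while Cd3e, Trbc1 and Cd28 were at 0 in all 6 libraries. The only T cell marker tested was Cd2, a gene that precursor B cells also express, which rose by 0.25 ± 0.06 on the log2 scale (SE, limma adjusted p = 0.0167). The 12 myeloid markers summed to 41.2 to 41.6 RPM in tet-LIN28B and 47.1 to 91.2 in control, and 0 of 4 tested changed.

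The 10 erythroid and megakaryocyte markers were higher without overlap, at 4.24 to 5.02 RPM in tet-LIN28B and 2.00 to 2.93 in control, and the globin genes Hba-a2 and Hbb-bs rose among 4 tested. The 6 plasma cell markers were lower without overlap, at 533 to 625 in tet-LIN28B and 750 to 857 in control. Of 5 tested, Sdc1, Prdm1 and Irf4 fell and Xbp1 rose (14.4% of all genes tested passed). Irf4 had 11913 normalized counts in tet-LIN28B and 15480 in control, Xbp1 6987 and 5499, Sdc1 1989 and 6444, and Prdm1 153 and 316. Irf4 was also followed as a transcription factor of B cell maturation, so the sum does not measure plasma cells alone. Of 8 dendritic cell markers, 7 had values in this stage. These summed to 3.29 to 3.77 in tet-LIN28B and 3.03 to 3.66 in control, where Flt3 rose and Ccr9 fell among 4 tested. Of 6 NK cell markers, 5 had values, and their sum reached at most 0.176 in tet-LIN28B and 1.78 in control, with 0 tested. The part of these cells in the members' differences was not tested. In bulk RNA of a sorted stage, fewer cells that express a gene and less of its RNA per cell cannot be told apart.

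In large Pre-B cells the summed myeloid markers were 17.5, 401 and 70.2 RPM in control replicates 1, 2 and 3, against 11.1 to 19.5 in tet-LIN28B. Control replicate 2 lay between the other controls for Ms4a1, Cd22, Cd72 and Cd55, was the lowest control for Bank1 and Fcer2a, and was the highest for Cd83 and Cr2. Without it, the log2 fold change was 2.21 for Ms4a1, 2.95 for Cd83, 1.11 for Bank1, 0.82 for Cd55, 0.64 for Fcer2a, 0.21 for Cd22 and -0.41 for Cd72, each with the sign it had with that library. Control replicate 3, also raised in myeloid markers, had the most genes detected of the large Pre-B libraries (28434). It was the lowest control for Ms4a1, Cd83, Cd55, Cd22 and Cd72, and the highest for Fcer2a.

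Over all 22 libraries, after the mean of each stage was removed, the 8 genes varied together only in part. Bank1 and Cd55 had the highest correlation of any pair (Pearson r = 0.65), followed by Fcer2a with Ms4a1 (r = 0.61), and Cd72 ran opposite to Fcer2a (r = -0.79). The most similar genes by this measure were Ctbs for Ms4a1 (r = 0.86), Fbxo40 for Fcer2a (r = 0.75), Dhdds for Cd22 (r = 0.95), Slc29a1 for Cd72 (r = 0.88), Pcdh9 for Cr2 (r = 0.83), Aim2 for Cd83 (r = 0.76), Gbp3 for Cd55 (r = 0.86) and Cd44 for Bank1 (r = 0.89). The points share libraries and genotype, and 7 mice gave a pair of points each, so these values are descriptions.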

How the data were processed

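Poly-A RNA was sequenced from 22 libraries of sorted bone marrow B cell precursors of tet-LIN28B and control mice (SMART-Seq v4 and Nextera XT, which do not mark strand). The submitters' processing notes name STAR 2.7.1, RSEM 1.28 and DESeq2, with mm10 as the genome build. The annotation was not given in the sources used here. Each deposited signal is a normalized count per gene, set by the authors in 1 table per stage, so tests were made within a stage. The authors' own comparisons (base means, log2 fold changes, test statistics and p-values) were also deposited and were not used. Some libraries may differ in sequencer, which is not given per library and cannot be checked.

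All values (100%) were whole multiples of 1 read within 0.1 read, which gave the reads behind them (13.9 to 51.0 M a library). Such totals cover counting error only, because reads were amplified by PCR and carried no molecular identifiers. Genotypes were compared by linear models (limma 3.58.1, R 4.3.3, lmFit and trended eBayes) on log2(normalized count + 1), a scale that understates changes of low genes. A gene was tested if the number of libraries with 10 or more normalized counts was no less than the size of the smaller group. P-values were two-sided and adjusted by the Benjamini-Hochberg method over all genes tested. The stage difference used 1 model for the 6 groups, in which the mouse was a random block. DESeq2 1.42.0 and edgeR 4.0.16 were run on the recovered reads as alternatives. Gene positions and exon lengths are from a GENCODE annotation of GRCm38, the build of mm10. The fits were tested on simulated data.

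The members and the other 14 gene lists were chosen with earlier results of these data known. The rule for other named genes took up to 4 genes per list and stage with the smallest adjusted p among those that passed, and the genes most correlated with each member. Tesk1, Lyn, Ighd, Cd47, Cr1l and Itgam were named after their values were seen.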

Additional observations from a re-analysis of the deposited data

Results flagged for a closer look

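Among the 24 sets of values made by the 8 genes in groups of 4 or 5 libraries, 3 had 1 library far from the others relative to the range of its group, where chance alone gives about 5% of sets. All 3 were in large Pro-B cells. Cd83 had 14.04 normalized counts in tet-LIN28B replicate 1, and the next highest tet-LIN28B library had 2.51. Cd55 had 276 in tet-LIN28B replicate 2, with the next at 122, and 264 in control replicate 1, with the next at 105. The high Cd55 libraries were 1 in each genotype. Without tet-LIN28B replicate 2 the log2 fold change of Cd55 was -0.45, and without control replicate 1 it was 0.21.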

How the results depend on the processing

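In small Pre-B cells all 8 genes kept their direction under each of 14 alternatives, and Ms4a1, Fcer2a, Cd72, Cd55 and Bank1 kept their calls. The count of members that passed was 5 to 8 over all settings, and 5 to 6 with 1 library left out. With 1 library left out, the genes that passed in all were between 1016 of 15028 (without control replicate 1) and 1965 of 15048 (without tet-LIN28B replicate 2). With no filter, the same total per library or edgeR, 6 passed (and 1807 of 23768, 2056 of 14664 and 2018 of 14664 genes in all). With quantile normalization 7 passed (2044 of 14664 genes), and with DESeq2 8 (2700 of 14664 genes). In large Pre-B cells 1 member passed with no filter (Ms4a1, limma adjusted p = 0.0226) and 2 with DESeq2 (Ms4a1 and Cd83, adjusted p = 0.00412 and 0.0181), and leaving out 1 library gave 0 to 2, the 2 without control replicate 1. The genes that passed in all were 15 of 34144 with no filter, 79 of 14155 with DESeq2 and 23 of 15413 without control replicate 1. Rescaling to the same total moved the median log2 fold change of all genes in large Pre-B cells to -0.12, and the directions of the members held. In large Pro-B cells 0 passed under every alternative run. With 1 library left out, the log2 fold change there ranged from -0.61 to 0.41 for Cd22 and from -0.45 to 0.21 for Cd55, and in large Pre-B cells from -0.0091 to 0.36 for Cd22. The cause of these changes was not tested.

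Within a stage, libraries of the 2 genotypes with the same replicate number came from different mice, and they did not deviate together in every pair (correlations of -0.19 to 0.43). With a replicate block 6 members passed in small Pre-B cells, the calls of Cd22 and Cr2 being lost, 0 in large Pre-B and 0 in large Pro-B cells, where the log2 fold change of Cd55 was 0.055. With that block 1758 of 14664, 2 of 14155 and 0 of 13776 genes passed in these stages. Stage differences passed for 0 members under all alternatives.

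Depth and the number of mice limit the low genes most. Fcer2a, Cr2 and Cd83 rest on fewer than 50 reads in most libraries of the large stages, and with 4 to 5 mice a group the intervals of Ms4a1, Bank1 and Cd72 in large Pro-B cells hold both no difference and the differences seen in small Pre-B cells. Leaving out a library also changes the number of genes tested.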

Other observations

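Small Pre-B cells showed changes of transcription factors of B cell maturation in either direction. Of 25 tested, 3 rose and 6 fell (14.4% of all genes tested passed), with a median log2 fold change of -0.09. Pou2f2, which encodes the octamer-binding factor OCT2, rose to 3868 ± 263 normalized counts in tet-LIN28B, against 2035 ± 125 in control (SD, n = 3 each, limma adjusted p = 0.000136). Spi1, which encodes PU.1, rose to 6177 ± 168 in tet-LIN28B, against 4331 ± 189 in control (limma adjusted p = 0.000880). Bach2, a repressor of plasma cell genes, fell to 25706 ± 3124 in tet-LIN28B, against 41681 ± 516 in control (limma adjusted p = 0.000720), and Rbpj, the DNA-binding partner of Notch, fell by 0.51 on the log2 scale (limma adjusted p = 0.00375).

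Among 17 precursor genes tested in the same stage, 2 rose and 5 fell (14.4% of all genes tested passed), with a median log2 fold change of -0.21. The list was not limited to genes of earlier stages. Il2ra averaged only 25.0 normalized counts in control large Pro-B cells, on the scale of that stage. Flt3, also in this list, rose by 1.15 ± 0.31 on the log2 scale in small Pre-B cells (SE, limma adjusted p = 0.0346). Il2ra, which encodes CD25, fell to 4823 ± 386 normalized counts in tet-LIN28B, against 10557 ± 348 in control (SD, n = 3 each, limma adjusted p = 2.85e-05). Il7r, which encodes a chain of the interleukin-7 receptor, fell to 10353 ± 1554 in tet-LIN28B, against 16919 ± 367 in control (limma adjusted p = 0.00114), Sox4 fell by 0.43 on the log2 scale (limma adjusted p = 0.00631), and Bst1, the antigen of the antibody BP-3, rose by 0.65 ± 0.09 (SE, limma adjusted p = 0.00138). In the large stages 0 genes of either list passed.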
